A study of Mus musculus with 6 samples.

Results

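The genes of cholesterol and fatty acid synthesis were examined in cultured mouse dermal fibroblasts with and without stabilized β-catenin. They are a list of 31 genes chosen by function, namely 18 enzymes of cholesterol synthesis, 7 genes of sterol sensing and transport and 6 enzymes of fatty acid synthesis. All 31 were found among the 41126 genes of the deposited all-gene table, and all 31 were among the 15462 genes that had enough fragments to be tested.

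RNA-seq, which counts sequenced cDNA fragments of each gene's transcripts, was performed on 3 Control and 3 GOF (gain of function) libraries. The cells were dermal fibroblasts of mice of mixed CD1, C57Bl6 strain at postnatal day 4, grown in serum and cultured separately for each animal. GOF cultures are labelled AdCre with the genotype Ctnnb1Δex3/+, in which Cre carried by an adenovirus removes an exon whose loss stabilizes β-catenin, the transcriptional effector of Wnt signaling. Control cultures are labelled AdGFP with the genotype +/+, although the methods of the study describe cells with the same targeted allele given Adenovirus-GFP. The label for the treatment gives 366 to 500 MOI (infectious units of virus per cell) of Adenovirus-Cre for 6 h in serum-free medium for every culture. The study took RNA days after infection, not at 6 h. Its methods give 366 to 500 MOI for Adenovirus-Cre and 366 MOI for Adenovirus-GFP, so the dose may differ between the groups too. By the labels for source and genotype the virus differs between the groups together with β-catenin, so an effect of the virus and one of β-catenin cannot be told apart. The titles name 4 animals, and 2 of them gave a culture to both groups, one to Control 0 and GOF 2 and the other to Control 2 and GOF 0.

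Cells make cholesterol from acetyl-CoA through mevalonate, isoprenoids, squalene and lanosterol, and make fatty acids from acetyl-CoA through malonyl-CoA. Both pathways are controlled by the SREBP transcription factors, which are held in the endoplasmic reticulum by Scap and the Insig proteins when sterols are plentiful and are cleaved and sent to the nucleus when sterols run short. Nuclear SREBPs bind sterol regulatory elements and raise the synthesis genes together, and Insig1 is one of their own targets. In skin, these pathways supply membranes, the lipids of the barrier and sebum.

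The libraries held 35980831 to 42834467 fragments. The state of the cells matched the labels, since Axin2, a direct target of β-catenin, was at 0.14 to 0.18 FPKM in Control and at 14.4 to 19.2 FPKM in GOF libraries. FPKM is a level in fragments scaled by transcript length and by library size. Of 12 cell cycle genes, 10 were lower in GOF by the test described below, where 10.2% of all genes tested fell. With a replicate block by animal 12 were lower, where 9.91% of all genes tested fell. All 12 were lower without overlap (19.2% of all genes tested). Their summed levels were 156 to 252 FPKM in Control and 90.0 to 102 FPKM in GOF. Control 0 stood apart with the highest sum of cell cycle FPKM, 252, against 156 and 160 in the other Control libraries. Of 9 fibroblast markers 2 were lower in GOF (Col1a2 and Dcn), or 5 with a replicate block by animal (10.2% and 9.91% of all genes tested). Col1a1, Thy1 and Twist2 had fitted log2 fold changes above 0 (0.0045, 0.29 and 0.64) and did not pass. The summed level was 2356 to 3110 FPKM in Control and 1032 to 1812 FPKM in GOF. Dcn and Col1a2 had the highest means of the 9 in Control, 1058 and 867 FPKM, against 330 and 387 FPKM in GOF. Of 8 sebocyte markers, 6 were under 0.1 FPKM in every library, and the sum was 0.57 to 0.77 FPKM in Control and 0.53 to 0.83 FPKM in GOF. Of 7 adipocyte markers, 6 were also under 0.1 FPKM, whereas Fabp4 made up nearly all of a sum of 7.18 to 8.95 FPKM in Control and 1.82 to 3.27 FPKM in GOF. Summed markers of keratinocytes were at 0.40 to 0.58 and 0.37 to 0.50 FPKM, those of macrophages at 2.58 to 4.23 and 4.53 to 8.31 FPKM and those of Schwann cells and melanocytes at 7.31 to 9.63 and 1.75 to 4.62 FPKM in Control and GOF. Of 7 macrophage markers, 1 rose, Csf1r, and of 7 markers of Schwann cells and melanocytes 1 fell, Mlana. Over all genes tested, 11.1% rose and 10.2% fell. Summed markers of endothelium were at 4.90 to 5.21 and 3.30 to 7.06 FPKM, and of these 6 markers 1 rose, Kdr, and 1 fell, Tek. Those of skeletal muscle were at 0.67 to 1.25 and 0.69 to 1.32 FPKM. Those of pericytes and smooth muscle were at 15.0 to 24.1 and 17.4 to 34.4 FPKM. Of these 6 markers 0 rose by the test described below, and 2 with a replicate block by animal. The share of all genes that rose with that block is not given here. The part of these differences in the results below was not tested, and in bulk RNA fewer cells of a type and less RNA per cell cannot be told apart.

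The synthesis genes were on balance lower in GOF cells. With edgeR's quasi-likelihood test over all genes and Benjamini-Hochberg adjustment, 16 of the 31 genes fell at an adjusted p under 0.05, where 10.2% of all genes tested fell, and 15 did not pass. None rose by edgeR, where 11.1% of all genes rose, although 1 gene, Sc5d, was higher at an unadjusted p under 0.05, and 1 was higher with DESeq2. At an added fold change over 2, the 3 genes Tm7sf2, Insig1 and Fdps fell (5.64% of all genes fell and 6.69% rose at both thresholds). The groups did not overlap in FPKM for 19 genes that were lower in GOF (19.2% of all genes tested) and for Sc5d, which was higher (20.3% of all genes). For each of these 20 genes the exact permutation test on FPKM gave a two-sided p of 0.1, the smallest that 3 against 3 libraries allow. The fitted log2 fold change was below 0 for 27 genes and above 0 for 4, and its median was -0.57, against -0.02 over all genes tested, of which 51.5% were below 0.

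**Figure D1:**
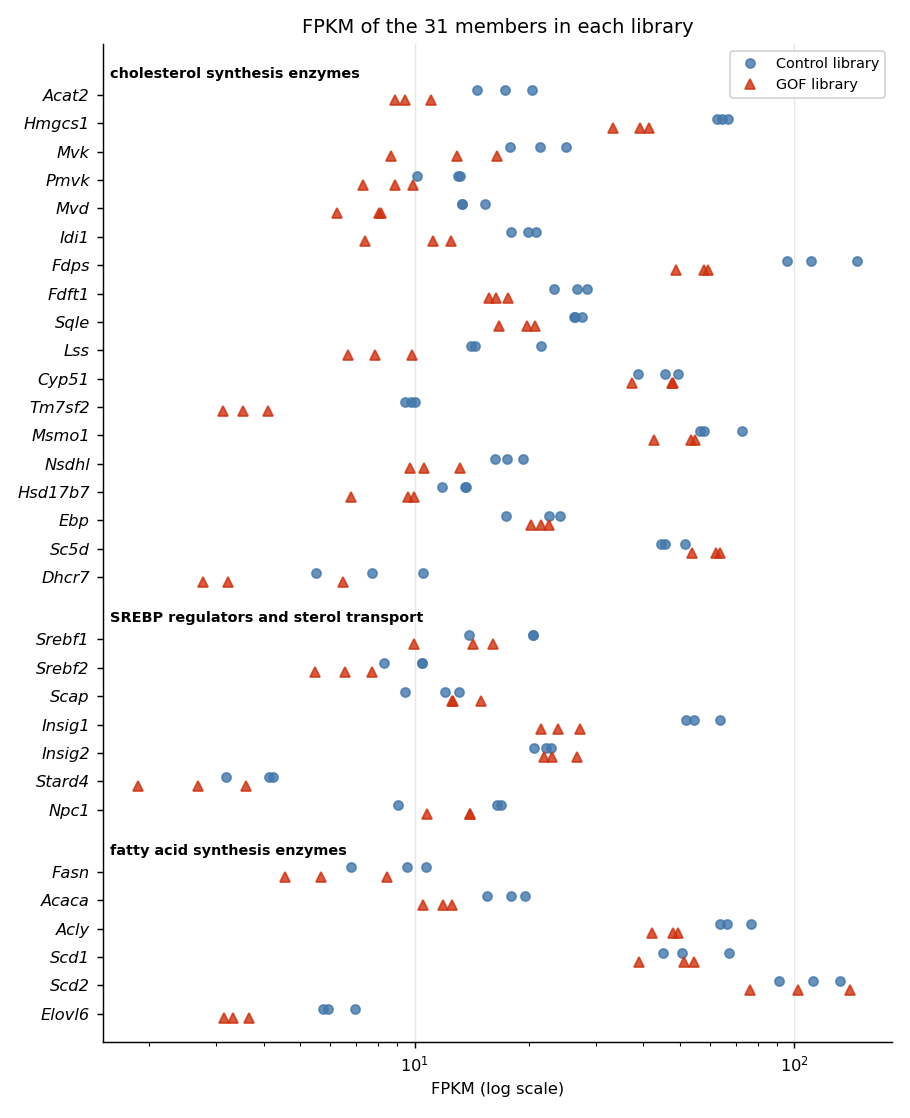
FPKM of each of the 31 genes (rows, grouped by role) in every library on a log axis, with circles for the 3 Control and triangles for the 3 GOF libraries. For Tm7sf2, Insig1, Fdps, Hmgcs1 and Elovl6 all triangles lie left of all circles, whereas for Cyp51, Ebp, Scd1 and Scd2 they mix.

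The most responsive genes came from several positions in the pathways. Tm7sf2 (ENSMUSG00000024799.9, chromosome 19 from 6062821 to 6068373, minus strand) encodes a sterol reductase that acts after lanosterol. It was at 10.0, 9.80 and 9.41 FPKM in Control 0, 1 and 2 and at 4.11, 3.53 and 3.12 FPKM in GOF 0, 1 and 2. Every GOF library was under 5 FPKM and every Control library over 9, and the log2 fold change of -1.49 (standard error, SE, 0.17, adjusted p = 0.00142 by edgeR) left 35.6% of the Control level. Its span shares 532 bases with Vps51 on the same strand, whose log2 fold change was -0.19 (adjusted p = 0.454 from edgeR). Insig1 (ENSMUSG00000045294.10, chromosome 5 from 28071363 to 28078662, plus strand) encodes one of the proteins that hold SREBPs in the endoplasmic reticulum. It was at 63.6, 51.7 and 54.5 FPKM in Control and at 27.2, 21.5 and 23.9 FPKM in GOF. The groups were far apart relative to the spread within them, with a log2 fold change of -1.23 (SE 0.15, adjusted p = 0.00164 from edgeR). Fdps (ENSMUSG00000059743.8, chromosome 3 from 89093588 to 89101959, minus strand) encodes farnesyl diphosphate synthase, which makes the isoprenoid from which squalene is built. With 146, 95.6 and 111 FPKM in Control and 59.3, 48.7 and 58.0 FPKM in GOF, it had the highest mean level of the 31 genes in Control. Control 0 was well above the other Control libraries, but the groups did not overlap, and Fdps fell by 1.11 on the log2 scale (SE 0.17, adjusted p = 0.00474 from edgeR). The annotated model Gm43738 on the same strand shares 7512 bases with its span, and fragments could be assigned to either. Without Control 0 it fell by 0.92 and was no longer past a fold change of 2.

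Promoter sequences are shown for 4 of the 6 genes with the smallest adjusted p, since these genes fell together and a reader may look for shared elements. Fdps and Fdft1 are the other 2. Each run is the 300 bases from 250 before to 50 after the start of a RefSeq transcript in GRCm38.p6, 5′ to 3′ on the strand of the gene. Capitals mark matches on either strand to the core of the sterol regulatory element (TCACNCCAC or GTGGNGTGA), to the CCAAT box (CCAAT or ATTGG), to the E-box CACGTG and to the Tcf/Lef core (CTTTGA or TCAAAG), and no matches overlap. Tm7sf2 is at chr19:6067801-6068100 on the minus strand, Insig1 at chr5:28071162-28071461, Hmgcs1 at chr13:119690101-119690400 and Elovl6 at chr3:129532136-129532435, all 3 on the plus strand.
Tm7sf2: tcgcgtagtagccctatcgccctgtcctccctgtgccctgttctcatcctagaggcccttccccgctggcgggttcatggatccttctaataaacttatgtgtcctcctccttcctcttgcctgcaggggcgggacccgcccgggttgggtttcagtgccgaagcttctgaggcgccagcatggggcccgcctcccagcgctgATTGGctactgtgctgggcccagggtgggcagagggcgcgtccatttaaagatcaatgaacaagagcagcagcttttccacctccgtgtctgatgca
Insig1: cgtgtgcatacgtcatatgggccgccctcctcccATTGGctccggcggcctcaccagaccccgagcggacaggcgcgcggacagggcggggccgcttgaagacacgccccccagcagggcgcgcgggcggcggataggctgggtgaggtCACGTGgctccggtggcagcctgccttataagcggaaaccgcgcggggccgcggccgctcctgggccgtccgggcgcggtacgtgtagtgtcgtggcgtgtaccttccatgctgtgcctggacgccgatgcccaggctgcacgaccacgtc
Hmgcs1: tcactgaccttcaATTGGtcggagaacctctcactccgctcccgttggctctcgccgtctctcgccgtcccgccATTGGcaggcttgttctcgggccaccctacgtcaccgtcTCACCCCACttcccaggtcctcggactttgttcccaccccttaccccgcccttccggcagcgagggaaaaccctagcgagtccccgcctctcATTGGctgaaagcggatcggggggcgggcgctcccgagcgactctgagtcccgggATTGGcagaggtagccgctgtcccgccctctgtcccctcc
Elovl6: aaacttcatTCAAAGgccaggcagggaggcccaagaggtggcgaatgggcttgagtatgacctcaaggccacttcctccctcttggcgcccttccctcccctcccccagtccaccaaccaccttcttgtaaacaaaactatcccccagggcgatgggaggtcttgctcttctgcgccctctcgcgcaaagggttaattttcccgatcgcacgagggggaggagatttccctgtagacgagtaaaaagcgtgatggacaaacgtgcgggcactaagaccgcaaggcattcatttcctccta

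In these windows, Hmgcs1 held the sterol regulatory core 137 bases before the start, with 4 inverted CCAAT boxes around it. Insig1 held an inverted CCAAT box 216 bases and an E-box 101 bases before the start, and Tm7sf2 an inverted CCAAT box 47 bases before it. Elovl6 held only a Tcf/Lef core, 241 bases before its start. Among the 24 genes of the list with a window, 20 (83.3%) held a CCAAT box on either strand, against 42.8% of the 11113 genes tested with a window and 41% of all 26994 genes with one. The box, bound by the factor NF-Y, was in the windows of 10 of the 13 genes that fell and of 10 of the 11 genes that did not pass. The E-box was in the windows of 5 of 24 genes (20.8%, against 11.5% of genes tested and 8.09% of all genes), the Tcf/Lef core in those of 3, Elovl6, Insig2 and Pmvk (12.5%, against 14.2% and 18.2%), and the sterol regulatory core in that of Hmgcs1 alone (4.17%, against 1.41% and 1.44%). A match of letters is a description of the sequence and not a bound site, and the absence of one says nothing of elements outside the window or spelled differently.

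Among the 18 enzymes of cholesterol synthesis, 11 fell and 7 did not pass, where 10.2% of all genes tested fell. The median log2 fold change was -0.72. The summed level of the 18 was 560 ± 50.02 FPKM (SD, n = 3) in Control and 390 ± 35.6 FPKM (SD, n = 3) in GOF. The sums ranged from 506 to 606 and from 352 to 423 FPKM, so the groups did not overlap, and the ratio of the means was 0.696.

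Most of the enzymes that lead to mevalonate and to the isoprenoids fell. Acat2, which joins acetyl-CoA units at the start of the pathway, was at 17.3, 14.6 and 20.4 FPKM in Control and at 11.1, 9.44 and 8.89 FPKM in GOF. It fell by 0.84 on the log2 scale (SE 0.16, adjusted p = 0.00965 from edgeR), with no overlap. Hmgcs1, the cytosolic HMG-CoA synthase, was at 64.6, 62.5 and 66.7 FPKM in Control and at 41.3, 33.2 and 39.1 FPKM in GOF. Its Control values lay within a narrow band, and its log2 fold change was -0.77 (SE 0.11, adjusted p = 0.00368 from edgeR). Mvd, which decarboxylates mevalonate diphosphate to isopentenyl diphosphate, was at 15.3, 13.3 and 13.4 FPKM in Control and at 8.16, 6.26 and 8.04 FPKM in GOF. Idi1, the isomerase of that product, was at 20.9, 17.98 and 19.8 FPKM in Control and at 12.5, 7.40 and 11.2 FPKM in GOF. The groups did not overlap for either gene, with log2 fold changes of -0.95 (SE 0.18, adjusted p = 0.00937) for Mvd and -0.90 (SE 0.18, adjusted p = 0.0116, both from edgeR) for Idi1. The model Gm20388 on the opposite strand shares 9822 bases with Mvd, its whole span, and had a log2 fold change of 0.03 (SE 2.49).

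The kinases that lie between them did not pass, although their values were lower too. Mvk, mevalonate kinase, was at 17.8 to 25.1 FPKM in Control and 8.64 to 16.5 FPKM in GOF, a log2 fold change of -0.82 (SE 0.28, adjusted p = 0.0806 from edgeR), with no overlap between groups. With a replicate block by animal its adjusted p was 0.0292, and over its 17 alternatives it ranged from 0.0224 to 0.192. Pmvk, phosphomevalonate kinase, had a log2 fold change of -0.50 (SE 0.16, adjusted p = 0.0662 from edgeR) and no overlap either, with 10.1 to 13.2 FPKM in Control and 7.30 to 9.89 FPKM in GOF.

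The enzymes from squalene to the first sterols fell as well. Fdft1, squalene synthase, was at 28.4, 23.3 and 26.8 FPKM in Control and at 17.6, 15.7 and 16.3 FPKM in GOF, and fell by 0.68 on the log2 scale (SE 0.11, adjusted p = 0.00627 from edgeR). The 3 GOF values lay close together and well under the lowest Control value. Fdft1 shares 774 bases with Ctsb on the opposite strand, which rose by 0.87 on the log2 scale (adjusted p = 0.0384 from edgeR). Sqle, squalene epoxidase, was at 26.3 to 27.6 FPKM in Control and 16.7 to 20.7 FPKM in GOF. It fell by 0.50 (SE 0.12, adjusted p = 0.0216 from edgeR), but with a replicate block by animal its adjusted p was 0.0577, in a range of 0.00216 to 0.105 over its alternatives. Lss, which closes the sterol rings to give lanosterol, was at 14.1 to 21.5 FPKM in Control and 6.66 to 9.81 FPKM in GOF, without overlap, and its log2 fold change was -0.95 (SE 0.20, adjusted p = 0.0150 from edgeR).

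Of the steps after lanosterol, some fell and others did not pass. Besides Tm7sf2, Nsdhl, a dehydrogenase that takes part in removing methyl groups from the sterol ring, fell by 0.66 on the log2 scale (SE 0.16, adjusted p = 0.0246 from edgeR), from 16.3 to 19.2 FPKM in Control to 9.72 to 13.2 FPKM in GOF. Hsd17b7, the keto reductase of the same reaction series, fell by 0.57 (SE 0.16, adjusted p = 0.0399 from edgeR). Its adjusted p was 0.0753 with a replicate block by animal, in a range of 0.0113 to 0.128 over its alternatives. Cyp51, the lanosterol demethylase, was at 38.7 to 49.3 FPKM in Control and 37.3 to 47.9 FPKM in GOF. Its groups overlapped almost wholly, and the 95% interval of its log2 fold change ran from -0.41 to 0.36, which does not reach the size of the change in Tm7sf2. Ebp, a sterol isomerase, was likewise mixed, with a log2 fold change of 0.06 (95% interval -0.21 to 0.33). Msmo1, the methylsterol oxidase, was at 56.5 to 72.6 FPKM in Control and 42.6 to 54.9 FPKM in GOF, without overlap, but its log2 fold change of -0.31 did not pass (95% interval -0.66 to 0.04, adjusted p = 0.188 from edgeR).

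Sc5d, a sterol desaturase near the end of the pathway, was the only one of the 31 genes with a higher FPKM in GOF and no overlap. It was at 51.5, 44.4 and 45.7 FPKM in Control and at 63.7, 53.7 and 62.3 FPKM in GOF. All GOF values were above all Control values, although the lowest GOF value was close to the highest Control value, and the log2 fold change of 0.34 (95% interval 0.07 to 0.60, adjusted p = 0.0738 from edgeR) did not pass. It passed with DESeq2, with a correlation within animals in limma-voom and without Control 0. Dhcr7, which converts dehydrocholesterol to cholesterol, was at 5.49, 7.73 and 10.5 FPKM in Control and at 6.48, 2.77 and 3.22 FPKM in GOF. The groups overlapped, because GOF 0 lay above the lowest Control library. Its log2 fold change of -1.03 was large and imprecise (SE 0.43, adjusted p = 0.130 from edgeR), and with a replicate block by animal it was -0.74 (adjusted p = 0.0302, in a range of 0.0302 to 0.314 over its alternatives).

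**Figure D2:**
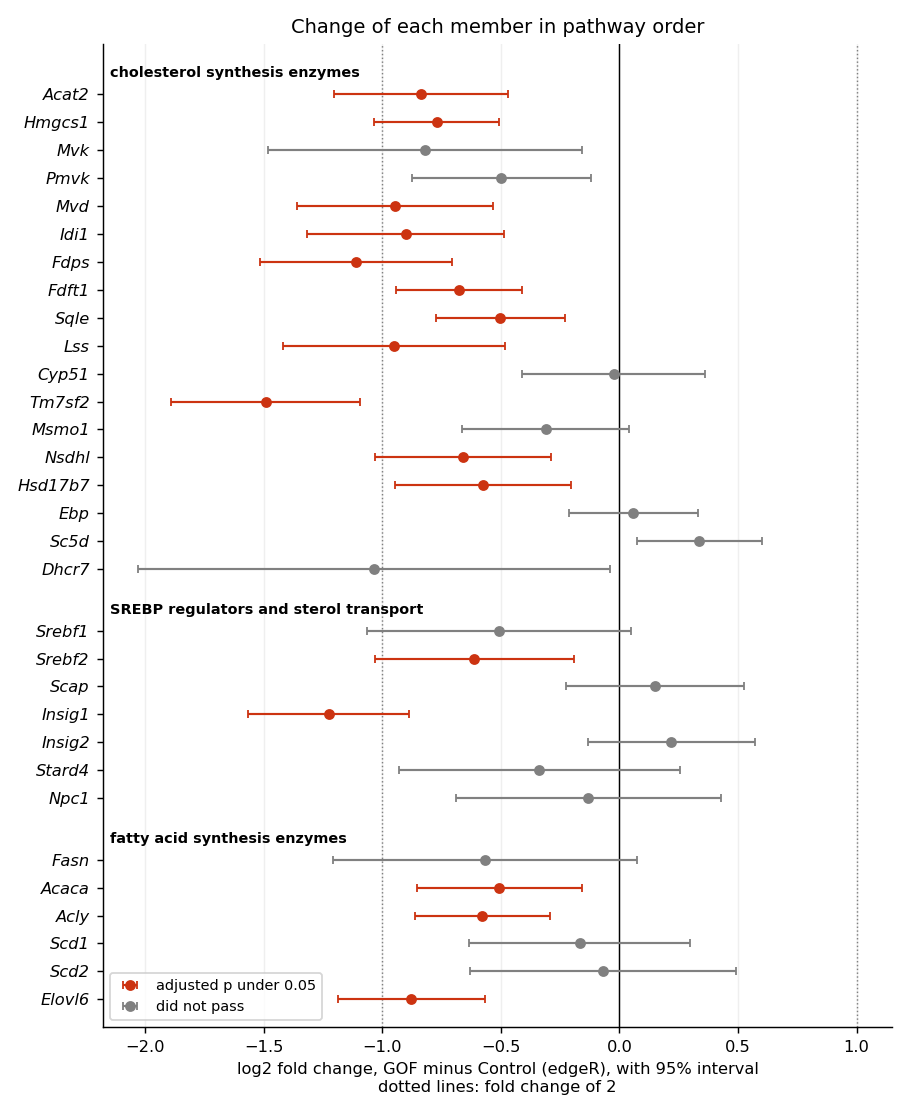
Fitted log2 fold change of GOF minus Control for each of the 31 genes in pathway order, with bars for the 95% interval from edgeR and dotted lines at a fold change of 2. Red points mark the 16 genes at an adjusted p under 0.05, all of them left of 0, and the points of Sc5d and Tm7sf2 are the furthest right and left.

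Of the 7 genes of sterol sensing and transport, 2 fell and 5 did not pass, where 10.2% of all genes tested fell. The median log2 fold change was -0.34. Their summed level was 136 ± 5.41 FPKM (SD, n = 3) in Control and 97.0 ± 11.4 FPKM (SD, n = 3) in GOF. Insig2, the second Insig protein, whose gene is not raised by SREBPs in the way Insig1 is, was at 22.8, 20.6 and 22.2 FPKM in Control and at 26.7, 23.0 and 21.9 FPKM in GOF. Its groups overlapped, and the 95% interval of its log2 fold change of 0.22 ran from -0.13 to 0.57, whereas that of Insig1 ran from -1.57 to -0.89. The 2 intervals do not overlap, but the difference between the genes was not tested. In Control the level of Insig1 was above that of Insig2 in every library, while in GOF they lay within a few FPKM of each other.

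Srebf2, which encodes the SREBP that acts chiefly on cholesterol genes, was at 8.30, 10.4 and 10.5 FPKM in Control and at 7.72, 5.47 and 6.54 FPKM in GOF. The groups did not overlap, and Srebf2 fell by 0.61 on the log2 scale (SE 0.18, adjusted p = 0.0487 from edgeR), just inside the threshold. With a replicate block by animal the log2 fold change was -0.37 and the adjusted p 0.121, in a range of 0.0165 to 0.156 over its alternatives. Srebf1, which encodes the forms that act chiefly on fatty acid genes, was at 13.9, 20.5 and 20.4 FPKM in Control and at 16.0, 9.97 and 14.2 FPKM in GOF. GOF 0 and GOF 2 lay above Control 0, so the groups overlapped, and the log2 fold change of -0.51 did not pass (SE 0.24, adjusted p = 0.176 from edgeR). Within the animal of Control 0 and GOF 2, the log2 ratio of FPKM was 0.04 for Srebf1 and -0.34 for Srebf2. Within the animal of Control 2 and GOF 0, it was -0.35 for Srebf1 and -0.44 for Srebf2.

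Scap, the escort and sterol sensor of the SREBPs, had a log2 fold change of 0.15 (95% interval -0.22 to 0.52). The transporters were low or variable. Stard4, a soluble carrier of sterols, had the lowest level of the 31 genes in Control, 3.85 ± 0.580 FPKM (SD, n = 3), and a log2 fold change of -0.34 (95% interval -0.93 to 0.25). Npc1, which exports cholesterol from lysosomes, was at 9.03 FPKM in Control 0 and at 16.4 and 16.9 FPKM in the other Control libraries, and its log2 fold change was -0.13 (95% interval -0.69 to 0.43).

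All 6 enzymes of fatty acid synthesis had a fitted log2 fold change below 0, with a median of -0.54. Only 3 fell past the test, where 10.2% of all genes tested fell. Their summed level was 267 ± 41.8 FPKM (SD, n = 3) in Control and 222 ± 40.0 FPKM (SD, n = 3) in GOF, and the sums overlapped. Acly, which supplies cytosolic acetyl-CoA to both pathways, was at 63.5, 66.4 and 76.6 FPKM in Control and at 47.9, 42.1 and 49.3 FPKM in GOF. No values overlapped, and it fell by 0.58 on the log2 scale (SE 0.12, adjusted p = 0.0149 from edgeR). With a replicate block by animal its adjusted p was 0.0526, in a range of 1.76e-04 to 0.0911 over its alternatives. Acaca, the carboxylase that makes malonyl-CoA, fell by 0.51 (SE 0.15, adjusted p = 0.0490 from edgeR), just inside the threshold. It was at 15.5 to 19.5 FPKM in Control and 10.5 to 12.5 FPKM in GOF. With a replicate block by animal its adjusted p was 0.0409, in a range of 0.0119 to 0.170 over its alternatives. Acaca shares 19126 bases with the model Gm11437 on the opposite strand.

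Elovl6, which lengthens the chain of palmitate, had the largest fitted change of the 6. It was at 5.74, 5.91 and 6.98 FPKM in Control and at 3.65, 3.14 and 3.32 FPKM in GOF. Every GOF value was well below the lowest Control value, and the log2 fold change was -0.88 (SE 0.13, adjusted p = 0.00419 from edgeR). Fasn, the fatty acid synthase itself, was at 6.80, 9.53 and 10.7 FPKM in Control and at 8.43, 4.56 and 5.68 FPKM in GOF. The groups overlapped because GOF 0 was above Control 0, and the log2 fold change of -0.57 did not pass (SE 0.28, adjusted p = 0.189 from edgeR).

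The stearoyl-CoA desaturases Scd1 and Scd2, which place the double bond that makes monounsaturated fatty acids, did not pass. Scd1 was at 45.2, 50.7 and 67.1 FPKM in Control and at 51.1, 54.5 and 38.8 FPKM in GOF. Scd2 was at 90.9, 112 and 131 FPKM in Control and at 140, 102 and 76.3 FPKM in GOF, where the highest and the lowest of all 6 values were both GOF libraries. The 95% intervals of the log2 fold changes ran from -0.63 to 0.30 for Scd1 and from -0.63 to 0.49 for Scd2, so changes of the size seen in Acly were within them. The genes are neighbours on chromosome 19 and alike in sequence, so their fragments may have been divided between them unevenly.

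Because 2 animals gave a culture to both groups, the genes were also compared within each. In both animals 23 of the 31 genes (74.2%) had a lower FPKM in the GOF culture, against 35.9% of all genes tested, and 2 genes, Sc5d and Scap, had a higher FPKM in both (6.45%, against 37.3%). The median log2 ratio of the 31 genes was -0.56 in the animal of Control 0 and GOF 2 and -0.44 in the animal of Control 2 and GOF 0, while over all genes tested it was 0.04 and -0.02. For Tm7sf2 the log2 ratios were -1.68 and -1.20, for Insig1 -1.41 and -1.002, for Hmgcs1 -0.72 and -0.69 and for Elovl6 -0.79 and -0.93. With a replicate block by animal, which left 1 residual degree of freedom, 14 of the 31 genes fell, against 9.91% of all genes tested. Sqle, Hsd17b7, Srebf2 and Acly no longer passed, and Mvk and Dhcr7 did.

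**Figure D3:**
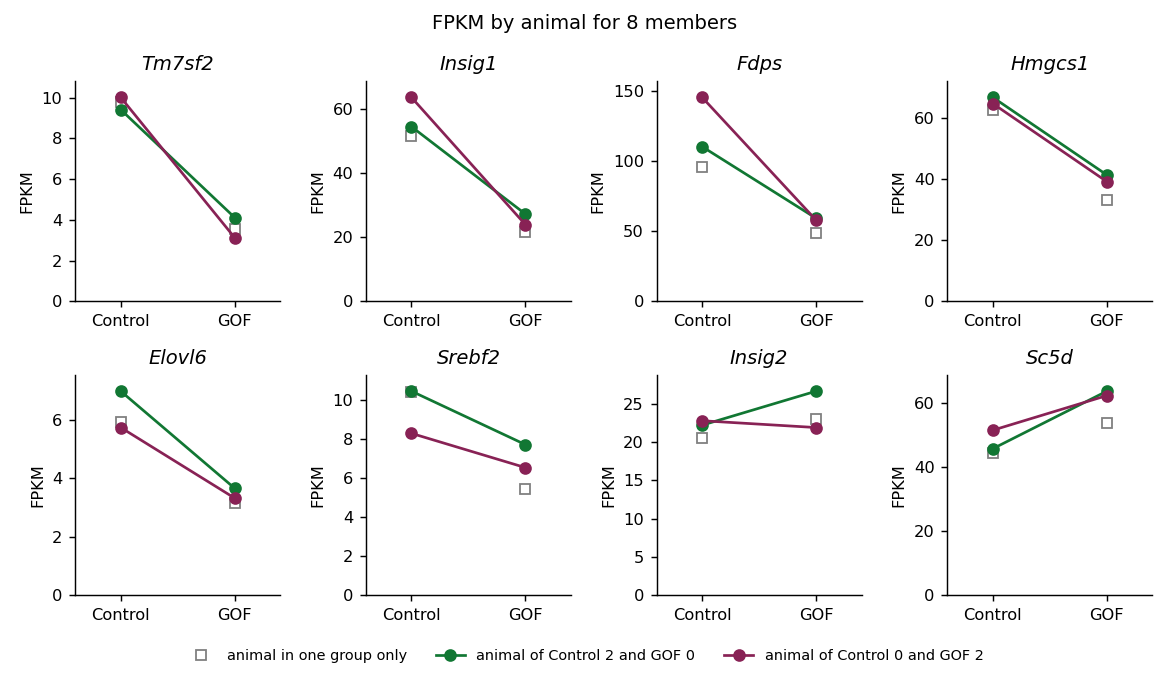
FPKM from 0 of 8 genes in Control and GOF cultures, with lines joining the cultures of the same animal and squares for the animals with a culture in one group only. Both lines fall for Tm7sf2, Insig1, Fdps, Hmgcs1, Elovl6 and Srebf2 and rise for Sc5d, whereas for Insig2 one rises and the other falls slightly.

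Which genes passed depended on single libraries. Acat2, Hmgcs1, Mvd, Idi1, Fdps, Fdft1, Tm7sf2, Insig1 and Elovl6, 9 of the 16 genes, passed in each of 17 alternative analyses. The other 7, Sqle, Lss, Nsdhl, Hsd17b7, Srebf2, Acaca and Acly, did not pass without Control 1, without Control 2 or without GOF 1, and 9 genes remained past the test each time (5.50%, 6.14% and 6.78% of all genes tested). Without Control 0, the library with the highest cell cycle level, all 16 still passed (11.5% of all genes tested fell) and Sc5d passed as higher. Dropping Control 0 leaves the cell cycle difference in place, with sums of 156 and 160 FPKM in Control against 90.0 to 102 FPKM in GOF. The part of the cell cycle in the falls was not tested.

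Related genes of lipid metabolism were compared to show where the list differs, and the lists of these were not tested as sets. Over all genes tested, 10.2% fell and 11.1% rose at an adjusted p under 0.05, and counts near these shares say little about a list. Of 15 further genes of sterol steps and of the isoprenoid branch, 4 passed, all lower, and the median log2 fold change was 0.02. At an unadjusted p under 0.05, 3 of these 15 were higher and 5 lower. The share of all genes at that unadjusted threshold is not given here, so these counts say little about the list. Acat1, Lbr and Erg28 were among those that fell, named after their values were seen. Lbr, a nuclear envelope protein with the same sterol reductase activity as Tm7sf2, fell by 0.42 (adjusted p = 0.0468 from edgeR). With a replicate block by animal Lbr did not pass (adjusted p = 0.0687, in a range of 0.0139 to 0.188 over its alternatives).

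Of 13 genes of SREBP processing and degradation, 2 passed, both higher, where 11.1% of all genes tested rose, and the median was 0.15. Prkaa2, a catalytic subunit of AMP-activated kinase, which inhibits lipid synthesis by phosphorylation, was at 0.23 to 0.24 FPKM in Control and at 2.03, 1.12 and 3.02 FPKM in GOF. The groups were far apart, with a log2 fold change of 3.12 (SE 0.31, adjusted p = 7.82e-04 from edgeR), from a low level. The other catalytic subunit, Prkaa1, named after its values were seen, was at 16.6 to 18.3 FPKM in Control and 19.9 to 23.6 FPKM in GOF. Prkaa1 did not pass (log2 fold change 0.32, adjusted p = 0.157 from edgeR). Of 18 genes of sterol uptake, trafficking and esterification 1 rose and 1 fell (11.1% and 10.2% of all genes tested), neither by more than a fold of 2. With a replicate block by animal 2 rose and 1 fell (9.91% of all genes tested fell with it), and the median without the block was -0.07.

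The LXR receptors sense oxysterols and raise sterol efflux. A mixed list of genes of these receptors, of sterol efflux and of oxysterol metabolism was divided. Of 10 tested, 2 rose and 3 fell, all 5 past a fold change of 2 (6.69% of all genes tested rose and 5.64% fell at both thresholds). Abcg1, a sterol exporter, rose from 4.41, 4.79 and 5.62 FPKM in Control to 14.9, 16.1 and 9.39 FPKM in GOF, a log2 fold change of 1.42 (SE 0.20, adjusted p = 0.00306 from edgeR). Abca1, another sterol exporter named after its values were seen, did not pass (log2 fold change -0.59, SE 0.36, adjusted p = 0.289 from edgeR). Cyp27a1, which makes an oxysterol, rose by 1.36 (adjusted p = 0.0134 from edgeR), from under 1 FPKM in every Control library. Mylip, an LXR target that promotes degradation of lipoprotein receptors, fell from 15.9, 23.0 and 28.5 FPKM to 6.53, 8.89 and 5.30 FPKM, a log2 fold change of -1.72 (SE 0.26, adjusted p = 0.00390 from edgeR). Cyp7b1, an oxysterol hydroxylase, fell by 2.16 (SE 0.49, adjusted p = 0.0189 from edgeR). Nr1h3, which encodes an LXR receptor, is named as the remaining gene of the 5 after its values were seen. It fell from 3.16, 2.28 and 2.25 FPKM to 0.897, 1.45 and 1.49 FPKM, a log2 fold change of -1.06 (SE 0.30, adjusted p = 0.0420 from edgeR, in a range of 0.00621 to 0.134 over its alternatives). For Abcg1, Cyp27a1, Mylip, Cyp7b1 and Nr1h3 the groups did not overlap.

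Of 29 other genes of fatty acid synthesis, elongation and desaturation 25 were tested. Of these, 3 rose and 5 fell (11.1% and 10.2% of all genes tested), none past a fold change of 2, and the median was -0.04. With a replicate block by animal, 1 rose and 4 fell (9.91% of all genes tested fell with it). The largest falls, named after their values were seen, were those of the polyunsaturated fatty acid desaturases Fads2 (log2 fold change -0.9985, SE 0.15) and Fads1 (-0.95, SE 0.13), with adjusted p-values of 0.00402 and 0.00270 from edgeR. Of 20 genes of fatty acid oxidation, the breakdown of fatty acids in mitochondria and peroxisomes, 2 fell, where 10.2% of all genes tested fell, and 18 did not pass. The median was 0.10, and at an unadjusted p under 0.05 6 were higher and 3 lower. The share of all genes at that unadjusted threshold is not given here, so these counts say little about the list. With a replicate block by animal 3 fell and 1 rose (9.91% of all genes tested fell with it). The difference between these lists and the 31 genes was not tested.

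**Figure D4:**
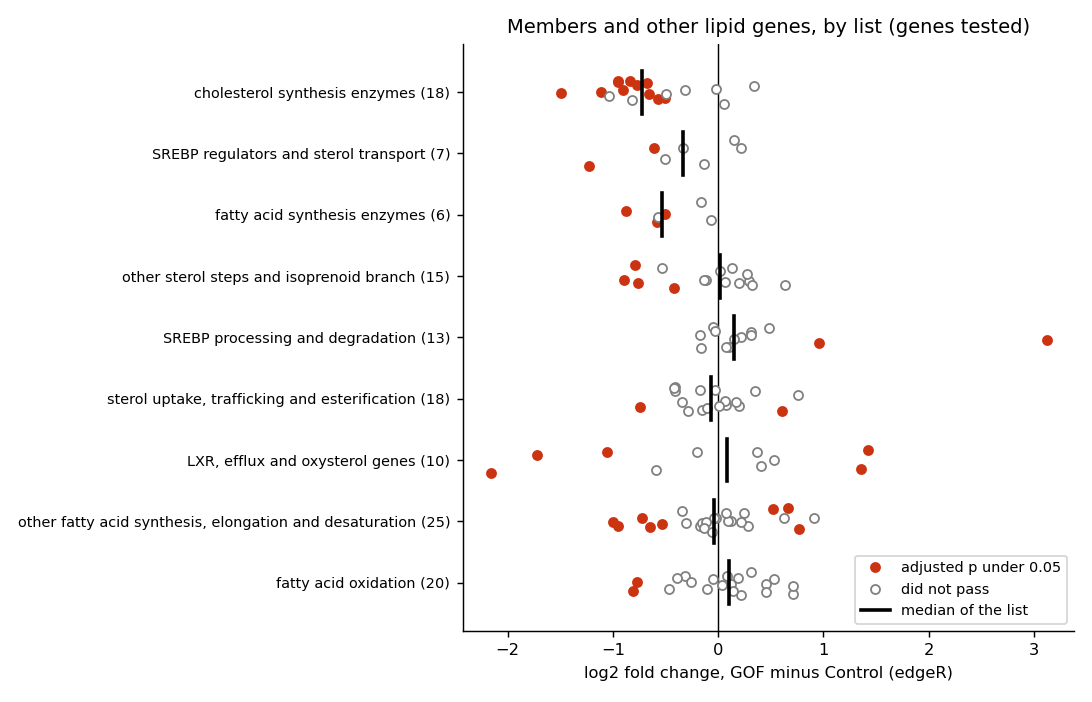
Fitted log2 fold change of GOF minus Control for every tested gene of the 3 groups of synthesis genes (top 3 rows) and of 6 related lists, with the number tested in brackets, filled points at an adjusted p under 0.05 and a black bar at the median. The medians of the top 3 rows are -0.72, -0.34 and -0.54, and those of the other lists lie between -0.07 and 0.15.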

How the data were processed

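RNA-seq libraries were prepared with a stranded kit, and the authors mapped the paired-end reads with TopHat to the mm10 assembly before running Cuffdiff. Cuffdiff's estimated counts of fragments per gene and library, which the authors deposited with no normalization, were used for the tests. Levels are the deposited FPKM, which Cuffdiff scaled by transcript length and depth. Whether counting used the strand is not given in the sources used here, so fragments of overlapping genes may have been mixed. The table held 2 other columns of values per library, which, like the table of lncRNAs, were not used.

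Identifiers were matched to gene symbols of the GRCm38 annotation for 97.9% of genes. Estimated counts, of which 4.95% were not whole, were rounded, and 32 genes with a failed estimate in a library were left out, none of them a gene of the lists. Counts were tested in R 4.3.3 with edgeR 4.0.16 (filterByExpr, TMM normalization, quasi-likelihood test, Benjamini-Hochberg adjustment over 15462 genes). Standard errors and 95% intervals come from that fit. An exact permutation test (scipy 1.17.1) was also run on the FPKM of single genes. The script was tested on simulated data. Promoters were read from RefSeq sequences of GRCm38.p6. The libraries are cultures of labelled animals. Same-animal libraries deviated together from their group means (correlations of 0.368 and 0.485 across genes). Libraries with the same number in the title, which come from different animals, did not (-0.424, 0.0523 and -0.401), and the remaining pairs gave -0.148 to 0.145. Deviations within a group sum to 0, so these correlations are not independent, and positive ones force negative ones elsewhere.

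The alternatives were DESeq2 1.42.0, library totals, normalization by upper quartiles, testing without a filter on low counts, an FPKM of at least 1 in 3 libraries, limma 3.58.1 on log2(FPKM + 1) and on log2(FPKM + 0.1), failed estimates kept, a replicate block by title number or by animal, a correlation within animals in limma-voom, and each library left out in turn. All 31 genes are named. FPKM in every library is given for the 10 with the smallest adjusted p, for Srebf1, Srebf2, Insig1, Insig2, Scd1 and Scd2, and for others where the text turns on them, and of each related list up to 4 genes past both thresholds are named. A gene of a related list is not reported here. The genes, the lists and these rules were chosen with earlier results of these data known.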

Additional observations from a re-analysis of the deposited data

How the results depend on the processing

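The median log2 fold change of the 31 genes stayed between -0.69 and -0.49 over 17 alternatives. Of 527 values of single genes, 460 kept their direction and their side of the threshold, 47 no longer passed, 13 newly passed and 7 changed sign, none of them past the test. With a library left out, the log2 fold change ranged from -0.14 to 0.11 for Cyp51 (above 0 without Control 0, 0.07, or GOF 2), from -0.0008 (without Control 0) to 0.12 for Ebp, from -0.37 to 0.0144 for Npc1, from -0.28 to 0.0138 for Scd1 (both above 0 without Control 2) and from -0.32 to 0.13 for Scd2 (above 0 without Control 2, 0.06, or GOF 2). The median over all genes moved by less than 0.1 in each alternative. The count of genes that fell, 16, was 9 with the title number as a replicate block, where 4.92% of all genes tested fell. It was 9 to 16 with a library left out, where 4.79% to 11.5% of all genes tested fell. The title numbers do not pair the animals. The count that rose, 0, was 1 with DESeq2 and 1 with a correlation within animals (a replicate block in limma-voom), and 0 to 1 with a library left out. The count that fell past a fold change of 2, 3, was 5 with upper-quartile normalization and 3 to 6 with a library left out, with 6 without GOF 0 and 5 without GOF 2. Over all genes, 1034 rose past both thresholds, 639 where an FPKM of 1 or more was required in 3 libraries and 481 with limma on log2(FPKM + 1), a scale that understates changes of low genes, and 742 to 1059 with a library left out. The 872 that fell were 396 with limma on log2(FPKM + 1) and 569 to 909 with a library left out, 569 being without GOF 0. The causes were not tested. With 3 libraries per group, changes of Dhcr7, Stard4, Fasn, Npc1 and Scd2 had wide intervals, and p-values measure only the spread between these cultures.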
